A study of Mus musculus with 6 samples.

Results

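The clustered histone genes are the short genes that supply most of the histone protein a dividing cell needs to wrap newly copied DNA. In the mouse they bear symbols beginning with Hist1h, Hist2h, Hist3h or Hist4h, after the genomic cluster they lie in. Members were taken as the rows of the deposited gene table with such a symbol that were above 0 in at least 1 of the 6 libraries. Of 68 such symbols, 64 were members, among 56826 rows and 23446 rows with gene symbols. Hist1h2aa, Hist1h2ba, Hist1h2bq and Hist1h2br were listed at 0 in every library. The members comprised 6 H1, 17 H2a, 16 H2b, 12 H3 and 13 H4 genes, of which 50 lay in the Hist1 set, 10 in Hist2, 3 in Hist3 and 1 in Hist4.

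The aorta-gonad-mesonephros (AGM) is the region of the mouse embryo where definitive blood stem cells arise, and Tph2 is an enzyme that makes the precursor of serotonin. Whole AGM regions of C57BL/6 embryos at E11.5 were compared between 3 genotypes, tph2+/+, tph2+/- and tph2-/-, with 2 libraries each and no treatment or other allele named. The labels speak of littermates but give neither the litter nor the number of embryos behind a library, and all p-values here speak of the spread between these libraries alone, which may be technical. The rows of Tph2 itself lay between 0.028 and 0.0764 RPKM (reads scaled by gene length and library size) in all 6 libraries, near the floor, and the tph2-/- libraries overlapped the tph2+/+ libraries, so this gene does not check the labels.

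Replication-dependent histone genes are transcribed in S phase and, unlike other protein-coding genes, most yield an mRNA with no poly(A) tail. The mRNA ends just after a short hairpin, the stem-loop, which is bound by the stem-loop binding protein (Slbp) through processing, export, translation and decay. H2A, H2B, H3 and H4 form the octamer around which DNA is wound, and the linker histone H1 binds where DNA enters and leaves it. A small part of these transcripts can instead be cleaved further downstream and polyadenylated, as known from differentiated cells.

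The stem-loop is shown for members on which the results below turn and in which it was found, because it sets the 3′ end of most members apart. Each line gives 26 bases of the GENCODE transcript on build GRCm38, written 5′ to 3′ on the gene's strand, with the 16 bases of the hairpin in capitals. In the capitals the first 6 and the last 6 bases pair, and the 4 between them form the loop.
Hist1h1c: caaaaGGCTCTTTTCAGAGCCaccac
Hist1h2ag: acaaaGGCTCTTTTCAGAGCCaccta
Hist3h2ba: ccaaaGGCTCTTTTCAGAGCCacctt
Hist1h3c: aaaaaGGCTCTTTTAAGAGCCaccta
Hist1h4i: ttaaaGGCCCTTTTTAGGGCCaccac
Hist1h4b: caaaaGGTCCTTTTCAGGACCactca
Hist1h4d: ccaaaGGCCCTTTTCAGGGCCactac
Hist1h4j: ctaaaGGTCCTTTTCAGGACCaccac

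These lay at chr13:23739507-23739532 (plus strand) for Hist1h1c, chr13:22042478-22042503 (minus) for Hist1h2ag, chr11:58949344-58949369 (plus) for Hist3h2ba and chr13:23745042-23745067 (minus) for Hist1h3c. The H4 stem-loops lay at chr13:22040961-22040986 (minus) for Hist1h4i, chr13:23757361-23757386 (plus) for Hist1h4b, chr13:23581945-23581970 (plus) for Hist1h4d and chr13:21735432-21735457 (plus) for Hist1h4j. All 8 were in the annotated 3′ UTR.

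A hairpin of this form, with every stem base paired, was found in the annotated 3′ UTR of 44 of the 63 members with a coding annotation, starting 21 to 58 bases after the stop codon. Of the 19 members without it, 13 had under 20 bases of annotated 3′ UTR, so its absence there describes the annotation. Among the members called in tph2-/- below, Hist1h3h, with 0 bases of annotated 3′ UTR, and Hist2h2be, with 2192, had none. The core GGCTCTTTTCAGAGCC was the commonest, in 3 H1, 10 H2a, 8 H2b and 5 H3 members. The core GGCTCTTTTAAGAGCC was found in 1 H1, 2 H2b and 3 H3 members. The 11 H4 members with a stem-loop used other stems, with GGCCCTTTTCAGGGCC in 7, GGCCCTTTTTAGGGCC in 2 and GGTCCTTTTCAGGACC in 2. The remaining core, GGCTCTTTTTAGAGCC, was in 1 H2a member. No H4 stem was found in a member of another class.

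The promoters also differed by class. RefSeq promoter windows of build GRCm38.p6, from 250 bases before to 50 bases after the gene's start, were matched for 57 members. The CCAAT box, read as CCAAT on both strands, was in all 6 H1, 16 H2a, 13 H2b and 10 H3 windows but in 3 of 12 H4 windows, against 37.9% of all 27025 promoter windows. The octamer, read as ATGCAAA on both strands, was in 6 of 16 H2a and 5 of 13 H2b windows, in 1 H4 window and in no H1 or H3 window, against 4.6% of all windows. TATAAA, also on both strands, was in 33 of the 57 windows, against 14.2% of all. Several H2a and H2b windows cover largely the same bases, because the genes lie head to head, such as Hist1h2ae with Hist1h2bg and Hist1h2ah with Hist1h2bk. A match in such shared bases counts for both windows, so these windows are not separate observations. A match is a description of letters in a window and not a measured binding site.

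The windows of the pair of members that rose most in tph2-/- show this contrast between an H2b and an H4 promoter, with matches to CCAAT and TATAAA on both strands in capitals. The window of Hist3h2ba is chr11:58948661-58948960 on the plus strand and holds 4 CCAAT and 2 TATAAA matches. The window of Hist1h4i is chr13:22041313-22041612 on the minus strand and holds 1 TATAAA and no CCAAT match.
Hist3h2ba: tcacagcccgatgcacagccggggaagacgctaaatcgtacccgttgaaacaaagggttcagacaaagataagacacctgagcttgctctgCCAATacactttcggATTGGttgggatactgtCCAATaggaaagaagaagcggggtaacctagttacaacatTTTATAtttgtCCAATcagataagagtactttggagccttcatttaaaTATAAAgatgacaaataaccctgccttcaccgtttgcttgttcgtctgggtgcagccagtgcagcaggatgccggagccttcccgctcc
Hist1h4i: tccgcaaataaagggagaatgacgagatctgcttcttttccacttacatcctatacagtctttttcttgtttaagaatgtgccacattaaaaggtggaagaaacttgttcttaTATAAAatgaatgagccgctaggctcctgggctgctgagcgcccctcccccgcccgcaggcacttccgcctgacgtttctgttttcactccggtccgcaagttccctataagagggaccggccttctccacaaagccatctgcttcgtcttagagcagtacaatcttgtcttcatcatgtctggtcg

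The libraries rested on 38760156 to 45986312 reads, as recovered from the steps of the RPKM values, with the tph2+/+ libraries the deepest. All 64 members together held 37640 reads over the 6 libraries. The limma test was run on log2(RPKM + 1) for the 12869 named genes whose mean reached 1 RPKM, and 37 members passed that filter: 1 H1, 7 H2a, 10 H2b, 9 H3 and 10 H4. The other 27 members held 4 to 272 reads each over all libraries, with a median of 63, and were left out by that filter. The sexes of the embryos differed between the genotypes: The tph2+/+ libraries had 79.1 and 76.3 RPKM of Xist, the tph2+/- libraries 101 and 0.0916, and the tph2-/- libraries 0.059 and 0.114. The Y-linked Ddx3y ran the other way, with 8.14 and 9.82 RPKM in tph2-/-, 8.69 in tph2+/- library 2 and at most 0.0214 elsewhere. Between tph2+/+ and tph2-/-, genotype and sex therefore cannot be told apart.

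Within each class, a few members made up most of the level. Hist1h4i held 60.8% of the summed H4 RPKM, Hist1h3c 51.6% of H3, Hist3h2ba 35.4% of H2b, Hist1h2ag 29.9% of H2a and Hist1h1c 76.7% of H1. The 3 highest members of a class held 91.3% of H1, 67.6% of H2a, 65.0% of H2b, 74.0% of H3 and 78.6% of H4. Summed over members, tph2+/+ libraries had 10.18 and 9.932 RPKM of H1, 52.26 and 52.88 of H2a, 57.74 and 51.34 of H2b, 52.51 and 53.46 of H3, and 69.75 and 69.55 of H4. The core classes thus lay between 51.34 and 69.75, and H1 was lowest. Replication-independent histones, most of which carry introns or poly(A) tails and are made throughout the cycle, reached higher RPKM. H2afz alone, the variant H2A.Z, was at 549 and 543.7 RPKM in tph2+/+, above all 64 clustered members together at 242.4 and 237.2, whereas H2afj, at 29.98 and 31.17, was below Hist1h4i. Most clustered histone mRNAs have no poly(A) tail, and the standard protocol of the library kit enriches polyadenylated RNA. How fully mRNA without a tail was captured was not measured, so these RPKM do not rank amounts of mRNA in the tissue.

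**Figure D1:**
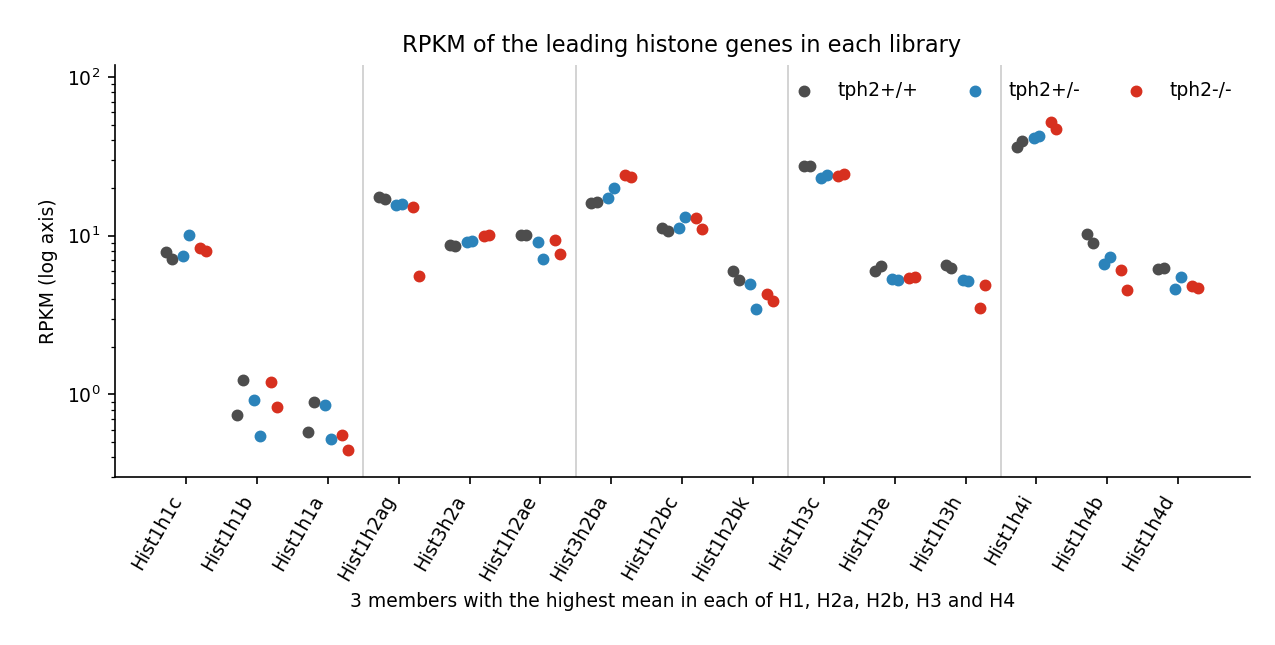
RPKM on a log axis of the 3 members with the highest mean in each class, in the 2 libraries of each genotype; points are libraries. Hist1h4i and Hist3h2ba lie higher in both tph2-/- libraries than in both tph2+/+ libraries, Hist1h4b lies lower, and Hist1h2ag is low in 1 tph2-/- library, at 5.551.

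The main comparison asked how histone transcripts differ between tph2-/- and tph2+/+ AGM regions. In tph2-/- against tph2+/+, 7 of the 37 tested members passed an adjusted p of 0.05 (limma, Benjamini-Hochberg over all 12869 genes), where 9.64% of all tested genes did. Hist3h2ba, Hist1h4i and Hist2h2be rose, and Hist1h4b, Hist1h4j, Hist1h3h and Hist1h4d fell. The 3 higher calls were 8.1% of the members against 5.84% of all genes, and the 4 lower calls 10.8% against 3.81%. The fold change was below 0 in 30 of 37 members, 81.1%, against 42.2% of all genes, and the median log2 fold change was -0.177 against 0.03. Both tph2-/- libraries lay below both tph2+/+ libraries in 17 members, 45.9% against 24.2% of all genes, and above them in 6 members, 16.2% against 35.7%. In the remaining 14 members the libraries overlapped. An exact permutation test of 2 libraries against 2 cannot go below p = 0.33, so each call rests on the spread shared across the fit. Because AGM regions were taken whole, fewer cells with a transcript and less of it in each cell cannot be told apart.

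**Figure D2:**
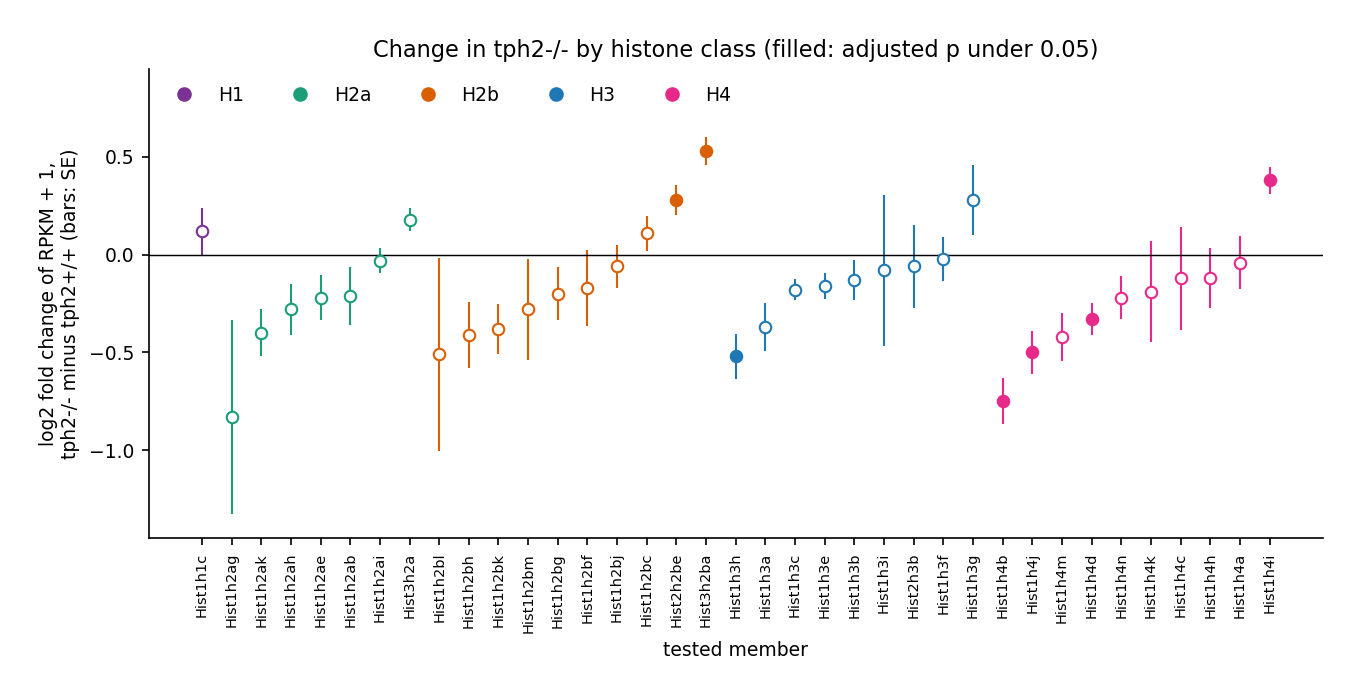
Log2 fold change of RPKM + 1 in tph2-/- minus tph2+/+ for the 37 tested members, ordered by class and size; bars are standard errors and filled points passed an adjusted p of 0.05. Most members lie below 0, and the highest are Hist3h2ba at 0.53 and Hist1h4i at 0.38.

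The linker histone H1 was represented in the test by Hist1h1c (H1.2), which did not pass it. Hist1h1c had 7.871 and 7.085 RPKM in tph2+/+ and 7.429 and 10.13 in tph2+/-, against 8.33 and 8.018 in tph2-/-. Both tph2-/- libraries were above both tph2+/+ libraries, but tph2+/- library 2 was higher than either, and the log2 fold change of 0.12 ± 0.120 (SE) had an adjusted p of 0.567 by limma. Hist1h1b, the gene of H1.5, and Hist1h1a, the gene of H1.1, were under the filter, at 0.5466 to 1.228 and 0.4436 to 0.8955 RPKM. The libraries of Hist1h1b overlapped between all genotypes, and for Hist1h1a both tph2-/- libraries, at 0.5526 and 0.4436, were below the tph2+/+ libraries at 0.5822 and 0.8955.

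No H2a member passed the test in tph2-/-, and 6 of 7 had a fold change below 0. Hist1h2ag, the leading H2a gene, had 17.52 and 16.97 RPKM in tph2+/+ and 15.66 and 15.74 in tph2+/-, against 15.16 and 5.551 in tph2-/-. Its 2 tph2-/- libraries were both the lower ones but lay far apart, with 278 and 103 reads, and the log2 fold change of -0.83 ± 0.494 had an adjusted p of 0.379. Without tph2-/- library 1 it was -1.48 with an adjusted p of 0.000243, so library 2 alone decides its size. Of the 150-base windows of its annotated transcript, 65.5% occurred in other H2a genes too, so reads may have been assigned between copies.

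Hist3h2a, the H2A gene of the small Hist3 cluster, ran the other way within H2a. It had 8.72 and 8.65 RPKM in tph2+/+ and 9.114 and 9.216 in tph2+/-, against 9.944 and 10.03 in tph2-/-. The 3 genotypes did not overlap and the tph2+/- libraries lay between the others, but the log2 fold change of 0.18 ± 0.0578 did not pass, with an adjusted p of 0.0828. Hist3h2a overlaps Trim17 on its own strand and Gm44313 on the other in GENCODE, and the libraries do not mark strand, so reads of these genes cannot be told apart where they overlap. Hist1h2ae had 10.1 and 10.17 RPKM in tph2+/+ and 9.081 and 7.13 in tph2+/-, against 9.418 and 7.713 in tph2-/-, with a log2 fold change of -0.22 ± 0.114 and an adjusted p of 0.242.

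H2b held the member that rose most. Hist3h2ba had 16.06 and 16.26 RPKM in tph2+/+ and 17.22 and 20.10 in tph2+/-, against 24.30 and 23.40 in tph2-/-. The genotypes did not overlap, tph2+/- lay between the others, and both tph2-/- libraries were the highest. Its log2 fold change was 0.53 ± 0.0732 with an adjusted p of 0.00268 by limma, and the call held without any single library. Hist3h2ba lies at chr11:58948920-58949533, in the same cluster as Hist3h2a, and no 150-base window of its transcript occurs in another member.

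Hist2h2be, an H2B gene whose annotated transcript extends 2192 bases past the stop codon, also rose. It had 3.514 and 3.603 RPKM in tph2+/+ and 3.663 and 3.891 in tph2+/-, against 4.671 and 4.411 in tph2-/-. The tph2-/- libraries stood above the other 4, with a log2 fold change of 0.28 ± 0.0752 and an adjusted p of 0.0488. The call was lost without any of the tph2+/+ or tph2-/- libraries, where the adjusted p was 0.0806 to 0.227. Hist1h2bc had 11.2 and 10.75 RPKM in tph2+/+ and 11.2 and 13.08 in tph2+/-, against 12.86 and 11.07 in tph2-/-, which overlapped, with an adjusted p of 0.448. Hist1h2bk had 5.993 and 5.267 RPKM in tph2+/+ and 4.943 and 3.47 in tph2+/-, against 4.266 and 3.881 in tph2-/-. Both other genotypes were below tph2+/+, but its log2 fold change of -0.38 ± 0.128 in tph2-/- had an adjusted p of 0.0979.

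In H3, 8 of 9 tested members had a fold change below 0 and 1 fell. Hist1h3c, the leading H3 gene, had 27.54 and 27.55 RPKM in tph2+/+ and 23.02 and 24.08 in tph2+/-, against 23.92 and 24.59 in tph2-/-. Both other genotypes lay below tph2+/+ by about the same amount, and the log2 fold change in tph2-/- was -0.18 ± 0.0533 with an adjusted p of 0.0715. Hist1h3h had 6.55 and 6.26 RPKM in tph2+/+ and 5.23 and 5.168 in tph2+/-, against 3.489 and 4.91 in tph2-/-. The genotypes did not overlap, and the log2 fold change was -0.52 ± 0.116 with an adjusted p of 0.0251. That call was lost without either tph2+/+ library (adjusted p 0.133 and 0.124) and without tph2-/- library 1 (0.0901, with a log2 fold change of -0.32), and 90.5% of the 150-base windows of Hist1h3h occur in other H3 genes. Hist1h3e had 5.979 and 6.402 RPKM in tph2+/+ and 5.243 to 5.458 in the other 4 libraries, which were all lower, with an adjusted p of 0.167.

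H4 held both a strong rise and most of the falls. Hist1h4i, the highest of all members, had 36.08 and 39.57 RPKM in tph2+/+ and 41.30 and 42.77 in tph2+/-, against 51.94 and 46.85 in tph2-/-. The genotypes did not overlap and tph2+/- lay between the others. The log2 fold change was 0.38 ± 0.0681 with an adjusted p of 0.0107, and the adjusted p rose to 0.0843 without tph2+/+ library 1 and to 0.0849 without tph2-/- library 1.

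Hist1h4b ran in the opposite direction, with 10.25 and 8.933 RPKM in tph2+/+ and 6.592 and 7.377 in tph2+/-, against 6.119 and 4.576 in tph2-/-. Again tph2+/- lay between the others. The log2 fold change was -0.75 ± 0.118 with an adjusted p of 0.0064, the largest change among the called members, and the adjusted p was 0.052 without tph2+/+ library 1. Hist1h4b overlaps 4930558J22Rik on the other strand, and 32.7% of the 150-base windows of its annotated transcript occur in other H4 genes. Its recovered model is only as long as the coding part, and the share over that part was not taken.

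Hist1h4d fell from 6.203 and 6.218 RPKM in tph2+/+ to 4.796 and 4.657 in tph2-/-, with 4.606 and 5.494 in tph2+/-. Its 4 libraries of the other genotypes were all below tph2+/+, and the log2 fold change of -0.33 ± 0.0828 had an adjusted p of 0.0395, which became 0.106 to 0.203 without any of the tph2+/+ or tph2-/- libraries. Hist1h4j fell from 1.603 and 1.429 RPKM in tph2+/+ to 0.6615 and 0.8988 in tph2-/-, whereas tph2+/- had 1.429 and 1.648. It rests on 101 reads over all libraries, and its log2 fold change of -0.50 ± 0.110 had an adjusted p of 0.0242. Without either tph2+/+ library or tph2-/- library 1 that became 0.107 to 0.163. The 6 other tested H4 members had log2 fold changes from -0.42 (Hist1h4m) to -0.04 (Hist1h4a), none past the threshold.

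The calls were also fitted with sex in view. With the mean log2 level of 4 Y-linked genes as a term in the fit, 1 member passed in tph2-/- against tph2+/+, Hist1h4d, at -0.55 with an adjusted p of 0.0478. Hist3h2ba then had 0.31 with an adjusted p of 0.165, Hist1h4i 0.31 with 0.266 and Hist1h4b -0.92 with 0.0567. Read by Xist, the 3 high libraries had 16.06, 16.26 and 17.22 RPKM of Hist3h2ba and the 3 low ones 20.10, 24.30 and 23.40. For Hist1h4i they had 36.08, 39.57 and 41.30 against 42.77, 51.94 and 46.85. Only tph2+/- holds a library of each kind, so these values do not separate sex from genotype.

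In H4 the leading member and the sum of the other members ran in opposite directions. The H4 sum was 69.75 and 69.55 RPKM in tph2+/+ and 75.88 and 69.82 in tph2-/-, a ratio of 1.05. Without Hist1h4i it was 33.67 and 29.98 in tph2+/+ and 27.49 and 28.71 in tph2+/-, against 23.94 and 22.97 in tph2-/-, a ratio of 0.737 with no overlap. The H2b sum had a ratio of 1.08, and 0.916 without Hist3h2ba, but the libraries overlapped in both. Without Hist3h2ba the sum was 41.68 and 35.08 RPKM in tph2+/+ against 36.06 and 34.29 in tph2-/-.

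For H3 the sum was 52.51 and 53.46 RPKM in tph2+/+ and 46.11 and 48.61 in tph2+/-, against 44.64 and 46.74 in tph2-/-, a ratio of 0.862 with both other genotypes below tph2+/+. That ratio was 0.843 without Hist1h3c, so this class did not depend on its leading member. The H2a ratio of 0.827 rested on tph2-/- library 2, at 37.11 against 49.81 RPKM in library 1, and was 0.937 without Hist1h2ag. The H1 ratio was 1.05, and 0.908 without Hist1h1c, where the libraries overlapped. All members together had a ratio of 0.966. These sums are descriptions with no test, and leaving out the leading member was chosen after the data were seen.

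**Figure D3:**
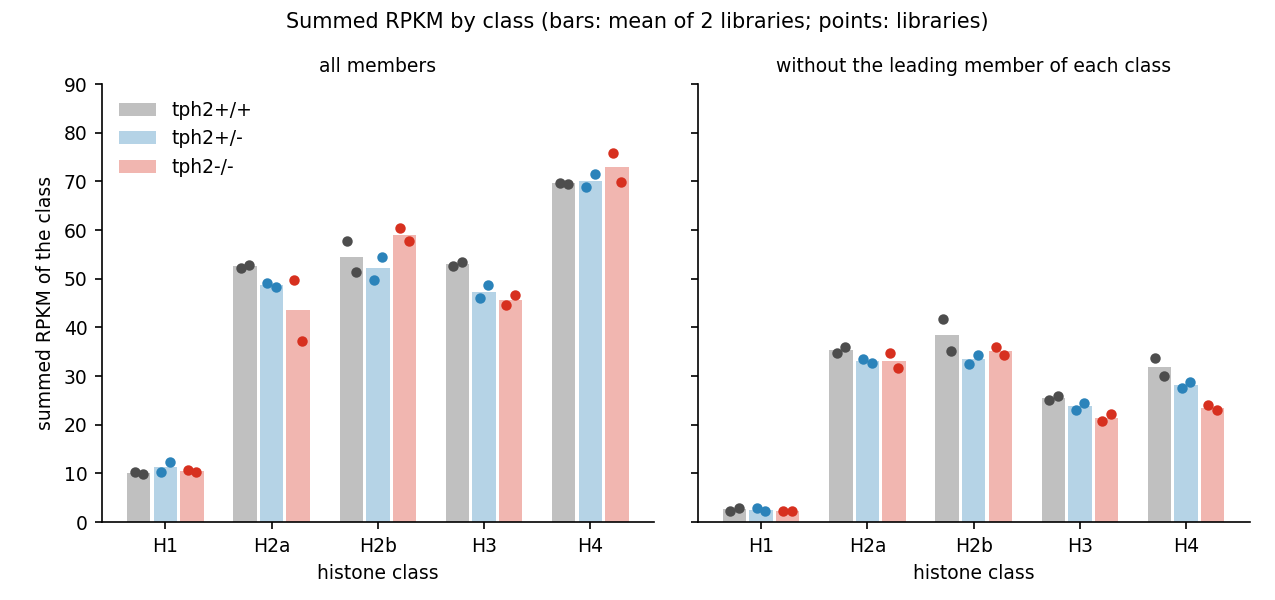
Summed RPKM of each class with all members (left) and without the leading member of each class (right); bars are means of 2 libraries and points are libraries. Without Hist1h4i the H4 sum is lower in tph2-/-, at 23.94 and 22.97, than in tph2+/+, at 33.67 and 29.98.

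In tph2+/- against tph2+/+, which shares the tph2+/+ libraries with the comparison above, 2 members passed, both lower: 5.4% of members where 1.95% of all genes were called lower, 4.13% higher and 6.08% in either direction. Hist1h2bj, an H2B gene, had 5.708 and 4.506 RPKM in tph2+/+ and 2.992 and 3.663 in tph2+/-, against 4.943 and 4.684 in tph2-/-. Its tph2+/- libraries stood below the other 4, and its log2 fold change was -0.49 ± 0.111 with an adjusted p of 0.0335 in tph2+/-, against -0.06 with 0.740 in tph2-/-. Without tph2+/+ library 1 the adjusted p in tph2+/- was 0.232, and without tph2+/- library 1 it was 0.126. Leaving out either tph2-/- library, which changes only the shared spread, gave 0.0737 and 0.074.

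Hist1h3c had a log2 fold change of -0.22 ± 0.0533 with an adjusted p of 0.0470 in tph2+/-, next to the -0.18 and 0.0715 in tph2-/- given above. That call was lost when any of the 6 libraries was left out, with an adjusted p of 0.0586 to 0.246. The fold change was below 0 in 62.2% of members against 41.4% of all genes, and the median was -0.067 against 0.024. Both tph2+/- libraries lay below both tph2+/+ libraries in 13 members, 35.1% against 19.8% of all genes, and above them in 6, 16.2% against 32.3%.

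In tph2-/- against tph2+/-, no member passed by limma, where 1.29% of all genes did (0.746% higher and 0.544% lower), and none passed by voom, limma's count-based variant, on the recovered reads. Over all 15946 genes voom called 482. At an unadjusted p under 0.05 there were 10 of 37 members by limma and 5 of 51 by voom. No share over all genes was taken at that threshold, so these counts have nothing to be set against. The median log2 fold change was -0.051 against -0.001 over all genes. Nearest to the threshold was Hist1h4m at -0.58 ± 0.122 with an adjusted p of 0.0611, followed by Hist3h2ba at 0.34 ± 0.0732 and Hist1h4j at -0.51 ± 0.110, each with 0.0661.

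Members that lie side by side in the genome differed. The 4 members Hist1h2bk, Hist1h4i, Hist1h2ag and Hist1h2bj lie within 7807 bases, at chr13:22035870-22043676. In tph2-/- their log2 fold changes were -0.38, 0.38, -0.83 and -0.06 in that order, with Hist1h4i alone past the threshold. The 6 members from Hist1h1c to Hist1h4b lie within 18602 bases, at chr13:23738808-23757409. Among the 5 of these that were tested, Hist1h1c had 0.12, Hist1h3c -0.18, Hist1h2ab -0.21, Hist1h3b -0.13 and Hist1h4b -0.75, and of these only Hist1h4b passed. These spans were picked after the values were seen.

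The direction of change differed with how far the authors' gene model reached. Model lengths recovered from the RPKM steps equalled the annotated coding part within 3 bases for 29 of 63 members. If these models are the coding part, reads lying wholly in the 3′ UTR were not counted for them, but the annotation counted is not known. Of these 29 members, 19 were tested, all 19 had a fold change below 0 in tph2-/-, and 3 fell (Hist1h4b, Hist1h4d and Hist1h4j). In the 16 members with a model longer by over 3 and under 200 bases, 9 were tested, 8 were below 0 and 1 fell (Hist1h3h). In the 18 members with a model at least 200 bases longer, 9 were tested, 6 were above 0 and 3 rose (Hist3h2ba, Hist1h4i and Hist2h2be). The medians were -0.22, -0.21 and 0.12. The long models held 47.1% of the summed RPKM and the coding-only models 26.7%. This grouping was made after the values were seen and has no test.

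**Figure D4:**
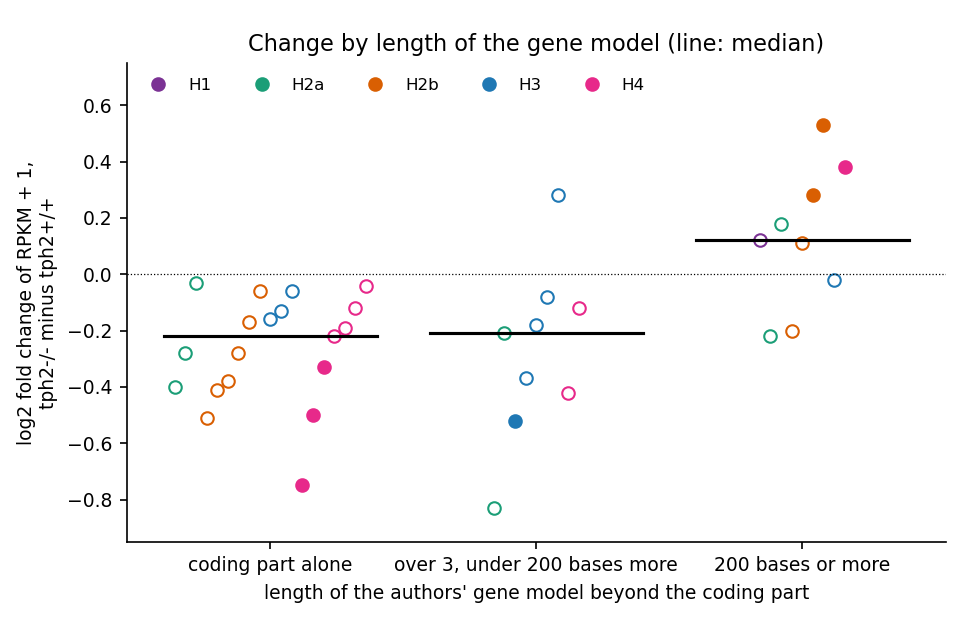
Log2 fold change of RPKM + 1 in tph2-/- minus tph2+/+ for the tested members, by how far the authors' gene model extends beyond the coding part; colours are classes, filled points passed an adjusted p of 0.05 and lines are medians. All 19 members with coding-only models lie below 0, and the 3 that rose have models at least 200 bases longer.

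AATAAA is the usual polyadenylation signal. Among the 12 members with such a long model and an AATAAA in the annotated 3′ UTR, 6 were tested and 5 of those had a fold change above 0. Over all 16 members with an AATAAA there, 9 were tested, with 5 above 0 and 4 below, 2 called higher and 1 lower. Hist1h4i, which rose, had no AATAAA in its annotated 3′ UTR, and Hist1h4j, which fell, had one. Hist3h2ba had its stem-loop 28 bases after the stop codon and a further 169 bases of annotated transcript behind the hairpin, and Hist1h4i 30 and 330 bases. Hist1h4b had 33 and 28 bases, so its annotated transcript ends soon after the hairpin. Hist1h4d, with 36 and 770 bases, and Hist1h4j, with 29 and 385, have long annotated transcripts but recovered models as long as the coding part alone. Whether reads came from transcripts with or without a poly(A) tail was not measured.

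The genes that make and process histone mRNA were tested in the same fit. Over all genes tested in tph2-/- against tph2+/+, 5.84% were called higher and 3.81% lower, with a median of 0.03. Of 20 tested genes for histone mRNA synthesis and 3′ processing, 1 rose in tph2-/- and none fell, near those shares, with a median log2 fold change of 0.066. That gene was Slbp, with 47.36 and 46.81 RPKM in tph2+/+ and 53.10 and 48.01 in tph2+/-, against 55.98 and 56.35 in tph2-/-. Its log2 fold change was 0.25 ± 0.0593 with an adjusted p of 0.0331, which became 0.0868 to 0.197 without any of the tph2+/+ or tph2-/- libraries. Npat, which activates histone gene transcription in S phase, had 6.192 and 6.073 RPKM in tph2+/+ and 6.605 and 6.475 in tph2-/-, with 0.08 ± 0.0645 and an adjusted p of 0.451.

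Few genes of DNA replication and mitosis passed the test. Of 40 DNA replication genes 1 rose and none fell, with a median of 0.062, and of 18 genes of G2 and mitosis 1 rose and none fell, also with a median of 0.062. Over all tested genes 5.84% were called higher and the median was 0.03. Gmnn (geminin), which blocks re-licensing of replication origins, had 0.22 ± 0.0593 with an adjusted p of 0.0488. Mki67, the Ki-67 protein of cycling cells, had 78.91 and 76.31 RPKM in tph2+/+ and 95.48 and 87.64 in tph2-/-, with 0.23 ± 0.0589 and an adjusted p of 0.0407. Pcna, the sliding clamp of DNA polymerase, had 191.6 and 191 RPKM in tph2+/+ and 216.1 and 208.7 in tph2-/-, with 0.15 ± 0.0620 and an adjusted p of 0.162. The Gmnn call was lost without any of the tph2+/+ or tph2-/- libraries (adjusted p 0.0772 to 0.336). The Mki67 call was lost without either tph2+/+ library or tph2-/- library 1 (0.126 to 0.253).

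Among 11 replication-independent histones, 1 rose and 1 fell in tph2-/-, where 5.84% of all genes were called higher and 3.81% lower. H2afj, an H2A variant, had 29.98 and 31.17 RPKM in tph2+/+ and 40.01 and 37.89 in tph2+/-, against 40.03 and 41.27 in tph2-/-. Both other genotypes were above tph2+/+, with log2 fold changes of 0.40 ± 0.0548 (adjusted p 0.00268) in tph2-/- and 0.34 ± 0.0548 (adjusted p 0.00709) in tph2+/-. H2afy2, a macroH2A gene, fell from 125.7 and 126.1 RPKM to 103.7 and 109 in tph2-/-, by 0.24 on the log2 scale, with an adjusted p of 0.0212. Without either tph2+/+ library or tph2-/- library 1 that became 0.113 to 0.149.

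The other variants were close to 0 in tph2-/-: H2afz 0.09, H3f3b (histone H3.3) 0.05, H1f0 -0.04 and H2afx 0.00, with adjusted p values of 0.382, 0.596, 0.637 and 0.989. Of 20 histone chaperones 1 rose and none fell, near the 5.84% of all genes called higher. It was Atrx, by 0.27 ± 0.0689 with an adjusted p of 0.0419 by limma. That call was lost without either tph2+/+ library or tph2-/- library 1. In tph2+/- against tph2+/+, H2afj was the only called gene over these 5 lists, where 6.08% of all genes were called.

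Markers of other tissues differed between the same libraries. In tph2-/-, 10 of 10 tested hepatoblast markers, 6 of 7 neural, 7 of 8 haematopoietic and 6 of 15 erythroid markers rose. Among those that fell were 7 of 9 somite and muscle and 3 of 6 mesonephros and gonad markers. Over all tested genes 5.84% were called higher and 3.81% lower. None of 8 pan-endothelial markers passed. The summed hepatoblast markers were 41.31 and 42.62 RPKM in tph2+/+, and 293.2 to 458 in the other 4 libraries. The summed erythroid markers were 10680 and 11190 RPKM in tph2+/+ and 11780 and 16920 in tph2+/-, against 14060 and 14760 in tph2-/-. Neural markers summed to 93.84 and 94.94 RPKM in tph2+/+ and 78.95 and 90.75 in tph2+/-, against 138.3 and 148.8 in tph2-/-. Haematopoietic markers summed to 30.04 and 30.76 RPKM in tph2+/+ and 50.74 to 60.02 in the other libraries.

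For somite and muscle markers the sum was 389.7 and 395.2 RPKM in tph2+/+ and 258.4 and 349.1 in tph2+/-, against 267.1 and 275.8 in tph2-/-. The mesonephros and gonad sum was 58.32 and 60.8 in tph2+/+ and 46.74 to 49.84 in the other libraries, and the pan-endothelial sum 105.5 and 107.9 against 94.1 to 96.48. No marker with a row was at 0 in all 6 libraries. The part of these tissue differences in the histone results was not tested.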

How the data were processed

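RNA of AGM regions was made into libraries with the TruSeq RNA Sample Prep Kit v2, a kit without strand information, and read as pairs of 150 bp, per the labels' protocols. The standard protocol of that kit enriches polyadenylated RNA, whereas the labels list total RNA and the manufacturer's protocol. TopHat2 2.0.9, HTSeq 0.5.3p9 and build GRCm38 were used by the authors, per the submitters' processing notes. The treatment of reads with several matches and the annotation counted are not given in the sources used here. RPKM values, as deposited by the authors, came in 1 column for each of the 6 libraries, matched to samples through the number that each description carries. Rows of cDNA clones (33353) and rows carrying dates (27) were left out.

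RPKM steps were read as whole reads. Read totals came from genes with a single GENCODE transcript. The gene model length of a row was the smallest at which all its values came out whole. The tolerance was 0.01 reads, wider for rows with many reads and for low rows that failed at first. Of 19818 named rows above 0, 19815 came out whole, but the length was searched freely, so this share does not check the lengths. The recovered length equalled a GENCODE transcript of the same gene in 2468 rows. Values were taken as log2(RPKM + 1) for named genes whose mean reached 1 RPKM, and limma 3.58.1 in R 4.3.3 (lmFit, eBayes with trend and robust) was fitted to 3 genotypes with 3 residual degrees of freedom. Adjustment was by Benjamini-Hochberg over 12869 genes, with a threshold of 0.05. Because 1 was added, low genes show smaller fold changes than they have. The fit was tested on simulated data.

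Members, gene lists and tests were chosen with earlier results of these data known. Full values were given for members past the threshold in any comparison, for the 3 highest members of each class, and for a few fixed partner genes. Members at least 1 log2 unit apart with libraries that do not overlap were also to be named, and no tested member met this. In the other lists the called genes with the largest change were named. Stem-loops came from GENCODE M21 transcripts on GRCm38, and promoters from RefSeq (GRCm38.p6). Of 64 members, 47 share at least 1 window of 150 bases with another of the 68 histone genes and 18 share over 50% of theirs, so their values depend on how the authors assigned such reads. These windows cover annotated transcripts and not the recovered models, so shares can differ over the part that was counted. Alternatives were another pseudocount, other filters, quantile normalization, all rows, a fit without trend, 2 genotypes alone, a Y-linked term, a replicate block and leaving out each library. Voom on the recovered reads and class sums without the leading member were added after the data were seen.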

Additional observations from a re-analysis of the deposited data

How the results depend on the processing

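No histone member or partner gene that passed the threshold changed direction under any alternative run. In tph2-/- against tph2+/+, the 7 member calls became 4 (2 higher, 2 lower) with no filter on low values. They became 9 (2 higher, 7 lower) with quantile normalization and 1 with the Y-linked term. Voom, which was chosen after seeing the data, called 4 of 51 members (3 higher, 1 lower). Over all 15946 genes it called 1468 higher and 851 lower, so the larger share of lower calls among members was not seen with voom. Its median log2 fold change was -0.187 for members and 0.0436 for all genes. Leaving out each library gave 1 to 9. The median of -0.177 became -0.239 with a pseudocount of 0.1, -0.094 with no filter and -0.25 with quantile normalization. Quantile normalization also moved the split of all genes from 751 higher and 490 lower to 548 and 667, and the median of all genes from 0.03 to -0.007. In tph2+/- against tph2+/+, the 2 calls became 0 with no filter, with all rows, without trend and robust estimation, and with voom, and 1 with the 2 genotypes alone, and ranged from 0 to 5 when a library was left out. Its median of -0.067 became -0.156 with quantile normalization and -0.152 with the Y-linked term, and -0.135 to 0.003 when a library was left out. In tph2-/- against tph2+/-, the count of 0 became 1 with a filter of 0.25 RPKM and with quantile normalization, and 0 to 2 when a library was left out; the median of -0.051 became -0.144 with the Y-linked term and -0.123 to -0.023 when a library was left out.

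Same-numbered libraries deviated together with correlations of 0.033, 0.170 and 0.073, which cannot show whether they share a litter or a batch. With a replicate block the member counts were 9, 2 and 1. The calls over all genes in tph2-/- against tph2+/+ went from 1241 to 1649 with it. The block gave 3 DNA replication, 2 G2 and mitosis and 3 histone chaperone genes. The single calls of the DNA replication, G2 and mitosis, 3′ processing and chaperone lists became 0 with no filter, all rows, no trend or the Y-linked term. The first 2 were also 0 with quantile normalization. Voom gave 0, 3, 2 (1 higher, 1 lower) and 3, where it called 2319 of all 15946 genes. The 2 calls of replication-independent histones became 1 without trend or with the Y-linked term. Leaving out a library gave 0 to 1 in the first 4 lists and 1 to 2 in the last; the single 3′ processing call without tph2-/- library 2 was a lower one and the rise of Slbp was not called. Class ratios without the leading member were 0.908 for H1, 0.916 for H2b and 0.737 for H4, and the H1 ratio was 1.09 over members of at least 1 RPKM. The cause of these shifts was not tested. The 27 members under 1 RPKM rest on few reads.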
